A study of Mus musculus with 11 samples.

Results

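The collagen and laminin genes of the mouse were followed in RNA of the colonic epithelium. They were chosen by symbol, as that of a collagen chain (Col, number, a, number) or of a laminin chain (Lama, Lamb or Lamc and a number). Described are 54 of the 54513 genes in the deposited table, 44 collagen and 10 laminin, and 48 of them were among the 19267 genes that passed the filter on low counts and were tested. The study, titled as one of miR-181 in colonic inflammation, isolated intestinal epithelial cells from the colon and used Percoll, a density medium, to take out lymphocytes. Group 1, DSS DKO (n = 3), was mice lacking both miR-181a1-b1 and miR-181a2-b2 (double knockout, DKO) that received 2% dextran sulphate sodium (DSS) for 7 days and then recovered for 2 days. The others were DSS WT (n = 3), wild-type mice given the same DSS and recovery, baseline DKO (n = 3) and baseline WT (n = 2), the same genotypes without DSS. DSS in drinking water is a common chemical model of colitis, in which the lining of the colon is damaged. The labels give no strain, age or sex and do not say whether the knockout is in all cells, and libraries are numbered below by the labels' replicate.

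Laminins and type IV collagen are the sheet-forming proteins of the basement membrane, the thin matrix on which epithelial cells rest. A laminin is built from an alpha, a beta and a gamma chain, and laminin-332, made by epithelial cells and holding the alpha chain of Lama3 and the beta chain of Lamb3, binds the integrin of the hemidesmosome. Laminin-511 and laminin-521 (Lama5 with Lamb1 or Lamb2 and Lamc1) are the main laminins under adult intestinal epithelium. The fibrillar collagens I, III and V, the microfibrils of type VI and the fibril-associated collagens fill the stroma below and are made mainly by fibroblasts. Members were put on a basement membrane side (20 genes, 17 tested), a stromal side (29 genes, 27 tested) or neither (5 genes, 4 tested) by where the protein lies, which does not say which cell made the RNA.

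The deleted clusters make miR-181a and miR-181b, and the family members miR-181c and miR-181d are encoded elsewhere. They are shown because all 4 share the seed (bases 2 to 8, in capitals) with which a microRNA recognises 3′ UTRs, so the same sites in collagen and laminin transcripts match the deleted and the remaining members. Sequences are from RefSeq, build GRCm38.p6. Mir181a-1 and Mir181b-1 lie on the plus strand of chromosome 1 (the miR-181a mature sequence at chr1:137966468-137966490), and Mir181a-2 and Mir181b-2 on the plus strand of chromosome 2.
miR-181a-5p: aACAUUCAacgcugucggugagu
miR-181b-5p: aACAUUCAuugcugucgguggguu
miR-181c-5p: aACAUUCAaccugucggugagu
miR-181d-5p: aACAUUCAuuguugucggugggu

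Of the 48 tested members, 11 (22.9%) held at least 1 match to the seed in the annotated 3′ UTR (GENCODE M21), against 3311 (23.6%) of the 14025 genes tested whose annotated UTR held 100 bases or more. The median 3′ UTR was 882 bases in members and 1180 bases in all of these genes. Searched on the transcript's strand were GAATGTA (the 7mer-A1 match), TGAATGT (the 7mer-m8 match) and the 8mer TGAATGTA, which contains both. Of the 12 members higher in DSS DKO than in DSS WT (below), 4 held a match. These 4 are printed as up to 30 bases of transcript with the match in capitals.
Lamc1: gactaggaagaTGAATGTttcccaaatcct
Col6a3: ataaagtatatTGAATGTgccatga
Col8a1: atgagagcaataGAATGTAttctacttttc
Col12a1: tgtacacgatcTGAATGTgatcctgtatac
The match in Col8a1 was a 7mer-A1 and the other 3 were 7mer-m8. The other 7 members with a match were Col4a1, Col4a4 (an 8mer), Col5a1, Col5a2, Col6a5, Col16a1 and Col23a1, none of which passed the test between DSS DKO and DSS WT. A match is a description of letters, and binding was not measured.

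Each library held 41631951 to 52761900 counts, of which the members took 0.0479% to 0.081%. Levels below are CPM, counts scaled to library size by TMM, and levels of different genes are compared only per kb of exon. Epithelial markers (10 genes, Epcam to Cldn3) summed to 11270 to 13210 CPM in DSS DKO, 13250 to 14890 CPM in DSS WT, 15580 to 17470 CPM in baseline DKO and 12920 to 14610 CPM in baseline WT. Between DSS DKO and DSS WT 0 of the 10 passed the test, while with DSS 0 were higher and 4 lower in DKO, and 1 was higher and 3 lower in WT, and their part in the changes of members with DSS was not tested. Fibroblast markers other than collagens (12 genes) summed to 31.7 to 95.6 CPM in DSS DKO, 25.0 to 34.9 CPM in DSS WT, 19.8 to 23.9 CPM in baseline DKO and 16.1 to 23.7 CPM in baseline WT. Genes of bone and cartilage, picked after the values were seen, had counts in every library when summed by list. Both sums were highest in baseline DKO 1, baseline DKO 2 and DSS DKO 3. The bone sum of DSS DKO 3 (19.9 CPM) was close to that of baseline WT 1 (16.9 CPM) and far from baseline DKO 1 and 2 (41.0 and 42.2 CPM). The cartilage genes Matn1 and Ucma had 0 counts in DSS DKO. Every DSS library had the sex-linked pattern of females (Xist at 633 to 906 CPM) and every baseline library that of males (Xist at 6.75 to 14.5 CPM), so the effect of DSS cannot be told apart from sex. In bulk RNA, fewer cells of a type and less RNA per cell cannot be told apart.

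A few chains made up most of the RNA of the 54 genes. Per kb of exon, their order in DSS DKO was Lamb3 (30.3 ± 4.13 CPM per kb), Col1a1 (20.1 ± 4.63), Lama3 (7.03 ± 0.797) and Col1a2 (6.71 ± 1.65), as mean ± SD of 3 libraries. Of these neighbours, Lama3 and Col1a2 did not differ beyond their SDs. With the longest transcript as length, Col1a2 (15.6 ± 3.84) stood before Lama3 (7.17 ± 0.812) in DSS DKO. In DSS WT the order by exon length was Col1a1 (27.1 ± 2.58), Lamb3 (15.7 ± 4.44), Col1a2 (9.2 ± 0.737) and Lama3 (3.3 ± 0.768), each in CPM per kb (SD, n = 3), and each step of it was larger than the SDs of both neighbours. By the longest transcript Col1a2 (21.4 ± 1.71) and Lamb3 (21.3 ± 6.03) were level in DSS WT, so the place of Col1a2 in both orders depends on the length used. No other of the 54 genes described reached 3 CPM per kb of exon after DSS, and by the longest transcript Col3a1 did in DSS DKO (3.38 ± 1.23). In baseline DKO, Col1a1 (34.7 ± 14.6 CPM per kb) and Lamb3 (26.8 ± 1.88) overlapped within the SD, as they did in baseline WT (25.7 ± 3.77 and 26.4 ± 2.82, SD, n = 2). By exon length Lamb2 came after Col1a2 in both baseline groups, at 4.36 ± 0.537 CPM per kb in baseline DKO and 4.28 ± 0.739 in baseline WT.

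As shares of the counts of these 54 genes, Lama3 and Lamb3 together held 33.9% to 47.2% in DSS DKO, 25.1% to 28.3% in DSS WT, 21.4% to 36.8% in baseline DKO and 31.3% to 31.7% in baseline WT. Every DSS DKO library lay above every DSS WT and baseline WT library, while DSS DKO and baseline DKO overlapped. The type I pair Col1a1 and Col1a2 held 27.3% to 37.8% in DSS DKO, 54.4% to 60.1% in DSS WT, 38.0% to 50.9% in baseline DKO and 42.6% to 42.7% in baseline WT. Every DSS DKO library lay below every other library in that share. The 20 genes of the basement membrane side together held 40.1% to 55.5% in DSS DKO and 28.7% to 33.3% in DSS WT, and the 29 of the stromal side 43.8% to 59.2% in DSS DKO and 66.1% to 70.5% in DSS WT. Long genes weigh more in such shares, and a share falls where another rises.

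**Figure D1:**
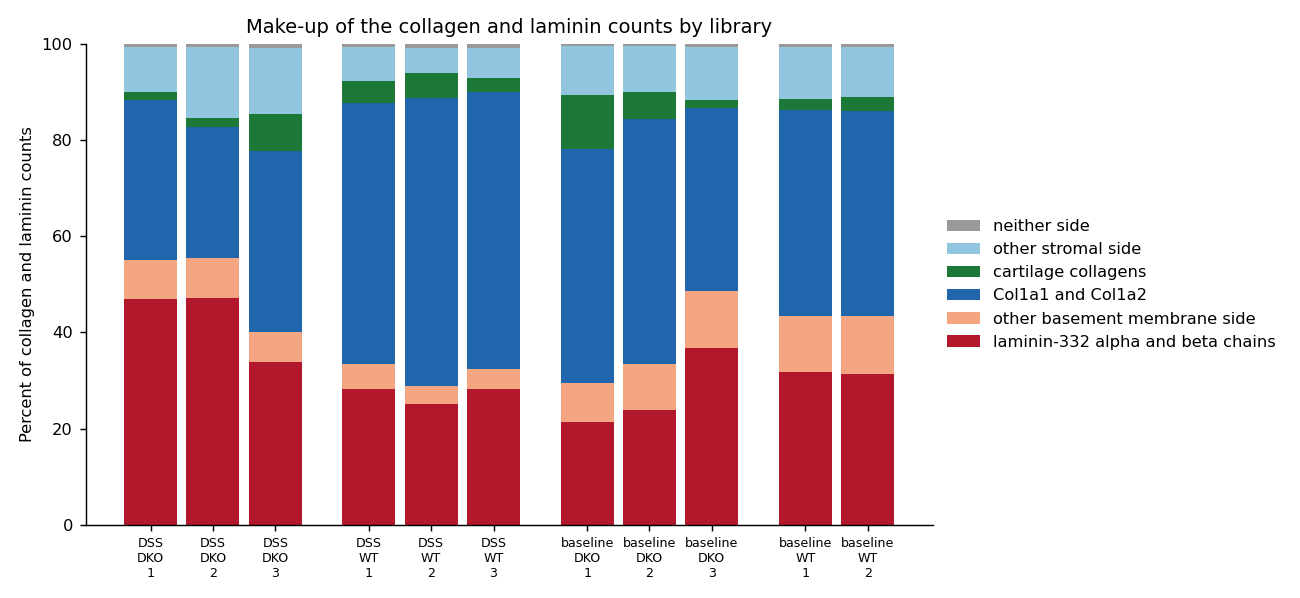
Stacked bars give, for each of the 11 libraries, the percent of the counts of the 54 collagen and laminin genes held by 6 groups of members. Lama3 and Lamb3 (laminin-332 alpha and beta chains) hold 33.9% to 47.2% in DSS DKO against 25.1% to 28.3% in DSS WT, and the cartilage collagens (7 genes) reach 11.2% in baseline DKO 1, 5.73% in baseline DKO 2 and 7.67% in DSS DKO 3.

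After DSS, the DKO libraries held more RNA of Lama3, Lamb3, Lamb1, Lamc1 and Col18a1 on the basement membrane side, and of Col3a1, Col5a3, Col6a2, Col6a3, Col6a4, Col8a1 and Col12a1 on the stromal side. Type I collagen, the most abundant stromal collagen, did not pass. In all, 12 of the 48 members were higher in DSS DKO than in DSS WT, 0 were lower and 36 did not pass (edgeR's quasi-likelihood test, Benjamini-Hochberg adjusted p under 0.05 over all 19267 genes). Of all genes tested, 5.26% were called higher and 5.98% lower. The median log2 fold change of the members was 0.68 and that of all genes 0.03, and 35 of 48 members (72.9%) had a positive log2 fold change against 52.2% of all genes. On the basement membrane side 5 of 17 were higher, with a median of 0.95, and on the stromal side 7 of 27, with a median of 0.34. In all 12 the 3 DSS DKO libraries lay above the 3 DSS WT libraries, as they did in 977 of the 1013 genes called higher in the whole table (96.4%). Col6a4, among the 12, held 0 counts in DSS WT and passed the filter only through groups where it was present, so it had to differ. Leaving it and Lama1 out for that reason, 11 of 46 members were higher, 6 of 26 on the stromal side. At an unadjusted p under 0.05 there were 19 members higher and 1 lower (Lama4), and DESeq2 called 16 higher and 1 lower. Over all genes these counts were 2592 higher and 2556 lower unadjusted, and 1450 higher and 1546 lower by DESeq2. The count of members higher depended on single libraries: it was 4 without DSS DKO 2, 4 without DSS WT 2 and 5 without DSS WT 3. Over all genes the count called higher fell too, from 1013 to 344, 375 and 378 in these fits. The 4 kept without DSS DKO 2 were Lama3, Lamb3, Col18a1 and Col8a1, and the same 4 were among the 5 called when the 3 libraries rich in cartilage collagen were left out. Without those 3 libraries the stromal median was -0.12, with 12 of 27 genes positive, and the basement membrane median 0.98. The 3 were chosen after the data were seen, by cartilage collagens that are themselves on the stromal side. The stromal median without them was thus shaped by that choice.

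At baseline 0 members were higher and 0 lower in DKO than in WT by the same edgeR test, where 0.0104% of all genes were called higher and 0.0156% lower. At an unadjusted p under 0.05 there were 2 members higher and 2 lower, and DESeq2 called 0 in either direction. Over all genes these counts were 359 higher and 392 lower unadjusted, and 9 higher and 7 lower by DESeq2. A positive log2 fold change was found in 34 of 48 members (70.8%) at baseline too, against 51.7% of all genes, with a median of 0.69 over the 27 stromal genes (24 positive), -0.02 over the 17 basement membrane genes and 0.01 over all genes. The stromal median turned to -0.48 without the cartilage-rich libraries, which leaves baseline DKO 3 alone in its group. Here too the libraries left out were chosen by members of the stromal side, which shaped this median. With 2 baseline WT libraries, small differences were not detectable. With DSS in WT, the members that fell were Lama1, Lama5, Lamb1, Lamb2, Lamb3, Col7a1, Col17a1 and Col18a1 of the basement membrane side and Col8a1, Col16a1 and Col20a1 of the stromal side, and Lama4 rose. That is, 1 member was higher and 11 were lower in DSS WT than in baseline WT (16.9% of all genes higher and 16.5% lower), with a median log2 fold change of -0.96 over the 17 basement membrane genes, -0.06 over the 27 stromal genes and -0.02 over all genes. Lama1, among the 11, held 0 counts in DSS WT, and without it and Col6a4 10 of 46 members were lower, 7 of 16 on the basement membrane side. Col17a1, still in both counts, passed the filter only through baseline libraries, and DSS libraries held 3 to 8 counts of it. With DSS in DKO, Lama3, Col5a3, Col6a4 and Col25a1 rose and Lama5, Lamb2, Col7a1 and Col16a1 fell. That is, 4 members were higher and 4 lower in DSS DKO than in baseline DKO (12.6% of all genes higher and 11% lower), with medians of -0.23 on the basement membrane side and -0.79 on the stromal side. Col6a4, among the 4 higher, held 0, 2 and 1 counts in baseline DKO and passed the filter only through DSS DKO and baseline WT. Without the cartilage-rich libraries the medians in DKO were 0.05 on the basement membrane side and 0.34 on the stromal side, against 1 baseline DKO library. That smaller fit gave fewer calls than the main fit, of members and of all genes, and its stromal median was shaped by the choice of libraries. The interaction, the test of whether the change with DSS differs between the genotypes, called 1 member higher, Col8a1, and 0 lower (0.773% of all genes higher and 0.794% lower), against 12 higher and 1 lower at an unadjusted p under 0.05 and 7 higher and 0 lower by DESeq2. Over all genes these counts were 1747 higher and 1889 lower unadjusted, and 555 higher and 705 lower by DESeq2. Without the cartilage-rich libraries Col8a1 missed the threshold (2.45, adjusted p = 0.0636) and Lama5 passed it (2.83, adjusted p = 0.0302). These comparisons share groups: DSS DKO enters both the contrast with DSS WT and that with baseline DKO, and DSS WT both the contrast with DSS DKO and that with baseline WT.

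**Figure D2:**
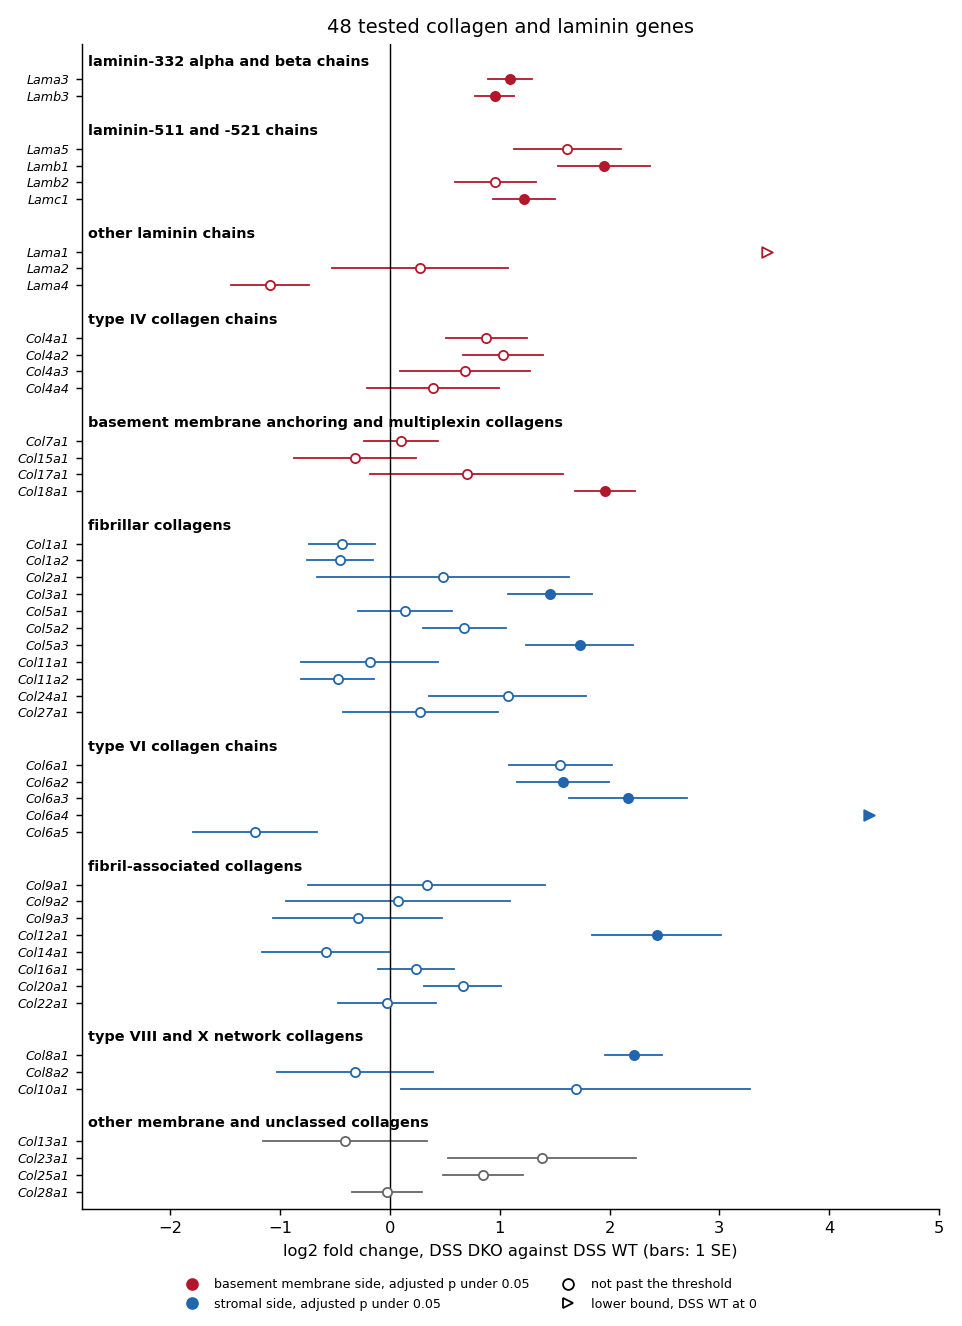
Log2 fold changes of DSS DKO against DSS WT (x axis) for the 48 tested members, grouped by class, with bars of 1 SE and filled symbols for an adjusted p under 0.05. All 12 filled symbols lie to the right of 0, among them Lama3 and Lamb3 of laminin-332; triangles mark Lama1 and Col6a4, whose DSS WT libraries held 0 counts, at their lower bounds.

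Lama3 and Lamb3 encode chains of laminin-332, the laminin of hemidesmosomes, and both were higher in DSS DKO than in DSS WT. Lama3, the alpha chain of laminin-332, had 78.8, 82 and 65.8 CPM in DSS DKO, 25.9, 40.5 and 39.9 CPM in DSS WT, 30.6, 26.8 and 25.5 CPM in baseline DKO and 36.9 and 23.8 CPM in baseline WT. The 3 DSS DKO libraries were the highest of the 11, and the other 3 groups overlapped. Lama3 was higher in DSS DKO than in DSS WT (1.09 ± 0.20, adjusted p = 0.00577) and than in baseline DKO (1.45 ± 0.20, adjusted p = 0.000584), on the log2 scale with SE, and these calls held when any single library was left out. In WT it did not pass the test with DSS (0.22 ± 0.22, adjusted p = 0.457), and the interaction did not pass (1.23 ± 0.29, adjusted p = 0.0564). Lama3 shares 197 exon bases with the gene model Gm29200, which held 40 counts over all libraries against 23240 for Lama3.

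Lamb3, the beta chain, showed another pattern, with 191, 231 and 179.5 CPM in DSS DKO, 137, 84 and 89.2 CPM in DSS WT, 187, 180.4 and 163 CPM in baseline DKO and 188 and 161 CPM in baseline WT. Here it was DSS WT that stood apart, with all 3 libraries below every other library, while DSS DKO overlapped both baseline groups. Lamb3 was higher in DSS DKO than in DSS WT (0.95 ± 0.18, adjusted p = 0.0066), did not pass in DSS DKO against baseline DKO (0.18 ± 0.17, adjusted p = 0.474) and was lower in DSS WT than in baseline WT (-0.75 ± 0.19, adjusted p = 0.012). The call in WT was lost without DSS WT 2 (adjusted p = 0.0517), DSS WT 3 (0.0544) or baseline WT 1 (0.103). The interaction was 0.93 ± 0.26, adjusted p = 0.088. Markers of squamous epithelium of the anal canal, which is rich in hemidesmosomes, summed over 9 genes to 6.10 to 11.8 CPM in DSS DKO, 4.37 to 5.95 CPM in DSS WT, 3.19 to 3.71 CPM in baseline DKO and 2.69 to 4.13 CPM in baseline WT. Of 6 tested, 1 (Dsg3, 2.86 ± 0.40, adjusted p = 0.00164) was higher in DSS DKO than in DSS WT, Sprr3 had 0 counts in all 11 libraries, Trp63 had 0 to 8 counts and Krt5 2 to 11 counts in a library. Krt14 had 83 to 203 counts in DSS DKO, 85 to 107 in DSS WT and 29 to 56 at baseline. Krt13 had 56 to 107 counts in DSS DKO, 22 to 69 in DSS WT and 2 to 10 at baseline. With DSS, 3 of the 6 were higher in DKO and 2 in WT, and 0 were lower in either. Within DSS DKO the squamous sum was lowest in DSS DKO 3, which was also lowest in Lama3 and Lamb3. The part of squamous cells in the laminin values was not tested.

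**Figure D3:**
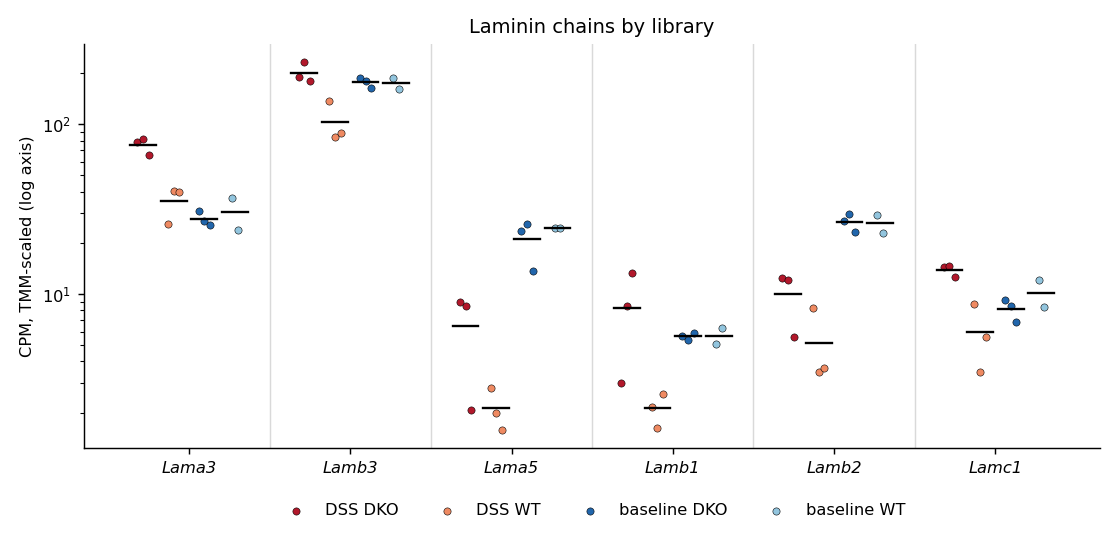
Each point is the CPM of 1 library on a log axis, and black lines are arithmetic group means, for Lama3 and Lamb3 of laminin-332 and the chains of laminin-511 and laminin-521. Lama3 is at 65.8 to 82.0 CPM in DSS DKO against 25.9 to 40.5 CPM in DSS WT, and Lama5 and Lamb2 are lower in both DSS groups than in their baseline groups.

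Of the 4 chains of laminin-511 and laminin-521, Lama5, Lamb2 and Lamb1 were lower in DSS WT than in baseline WT, and Lamb1 and Lamc1 were higher in DSS DKO than in DSS WT. Lama5, their alpha chain, had 8.92, 8.53 and 2.06 CPM in DSS DKO, 2.8, 2.0 and 1.58 CPM in DSS WT, 23.6, 25.7 and 13.7 CPM in baseline DKO and 24.3 and 24.4 CPM in baseline WT. All 6 DSS libraries lay below all 5 baseline libraries, and DSS DKO 3 lay within the range of DSS WT while DSS DKO 1 and 2 lay above it. Lama5 was lower in DSS WT than in baseline WT (-3.52 ± 0.54, adjusted p = 0.00163) and lower in DSS DKO than in baseline DKO (-1.68 ± 0.48, adjusted p = 0.0304). The call in DKO was lost without baseline DKO 1 (adjusted p = 0.073) or baseline DKO 2 (0.0954), and without the 3 cartilage-rich libraries the log2 fold change was -0.69 (adjusted p = 0.227). Between DSS DKO and DSS WT it did not pass (1.62 ± 0.49, adjusted p = 0.0638), but without those 3 libraries, DSS DKO 3 among them, it did (log2 fold change 2.03, adjusted p = 0.00454).

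Lamb2, the beta chain of laminin-521, had 12.3, 12.1 and 5.56 CPM in DSS DKO, 8.29, 3.49 and 3.67 CPM in DSS WT, 26.7, 29.7 and 23.2 CPM in baseline DKO and 29.2 and 22.9 CPM in baseline WT. It was lower in DSS WT than in baseline WT (-2.34 ± 0.41, adjusted p = 0.00238) and in DSS DKO than in baseline DKO (-1.41 ± 0.37, adjusted p = 0.0208), and neither pair of groups overlapped. Without baseline DKO 2 the call in DKO was lost (adjusted p = 0.0697), as it was without the 3 cartilage-rich libraries (0.305). DSS DKO and DSS WT overlapped, and their difference did not pass (0.96 ± 0.37, adjusted p = 0.127).

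Lamb1, the other beta chain, is also made by stromal cells and had 3.0, 8.45 and 13.2 CPM in DSS DKO, 2.15, 1.62 and 2.59 CPM in DSS WT, 5.63, 5.33 and 5.88 CPM in baseline DKO and 5.09 and 6.27 CPM in baseline WT. DSS WT lay lowest and the baseline groups lay together, while the 3 DSS DKO libraries spread from near DSS WT in replicate 1 to above every baseline library in replicates 2 and 3. It was higher in DSS DKO than in DSS WT (1.95 ± 0.42, adjusted p = 0.0148), a call lost without DSS DKO 2 (adjusted p = 0.0556) or DSS WT 2 (0.0683). It was lower in DSS WT than in baseline WT (-1.42 ± 0.45, adjusted p = 0.0329), a call lost without any 1 of the 5 libraries of those groups (adjusted p = 0.0559 to 0.147). Lamc1, the shared gamma chain, had 14.4, 14.6 and 12.6 CPM in DSS DKO, 8.72, 3.49 and 5.6 CPM in DSS WT, 9.16, 8.47 and 6.8 CPM in baseline DKO and 12 and 8.36 CPM in baseline WT. The DSS DKO libraries were the 3 highest, and the other groups overlapped. Lamc1 was higher in DSS DKO than in DSS WT (1.23 ± 0.28, adjusted p = 0.0178), which was lost without DSS DKO 2 (adjusted p = 0.0721), DSS WT 2 (0.0544) or DSS WT 3 (0.0736), and no other comparison of Lamc1 passed.

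The remaining laminin chains were at trace levels. Lama4, a chain of vessel and stromal laminins, had 0.87, 1.11 and 1.09 CPM in DSS DKO, 2.06, 2.89 and 1.6 CPM in DSS WT, 0.65, 1.72 and 0.913 CPM in baseline DKO and 0.929 and 1.02 CPM in baseline WT. The DSS WT libraries were the highest, except that baseline DKO 2 lay above DSS WT 3. Lama4 was higher in DSS WT than in baseline WT (1.16 ± 0.41, adjusted p = 0.0453), a call lost without any 1 of 6 libraries (adjusted p = 0.0532 to 0.203: DSS DKO 2, DSS WT 1, DSS WT 2, baseline DKO 3 and both baseline WT libraries). Of the 9 tested laminin chains described Lama4 alone had a negative log2 fold change in DSS DKO against DSS WT (-1.09 ± 0.35, adjusted p = 0.069), which did not pass although the groups did not overlap. Endothelial markers (8 genes) summed to 4.53 to 5.81 CPM in DSS DKO, 6.04 to 6.99 CPM in DSS WT, 10.5 to 14.9 CPM in baseline DKO and 13.8 to 15.1 CPM in baseline WT. The sum was thus lower in DSS WT than in baseline WT, where Lama4 was higher, and their part in Lama4 was not tested.

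Lama1, a laminin chain best known from the embryo, had 0.037, 0.405 and 0.181 CPM in DSS DKO, 0, 0 and 0 CPM in DSS WT, 0, 0.121 and 0.117 CPM in baseline DKO and 0.283 and 0.0425 CPM in baseline WT. It passed the filter only through groups where it was present, since all 3 DSS WT libraries held 0 counts. Set against a floor of 3 counts over the DSS WT group, Lama1 was at least 10.8-fold higher in DSS DKO, which did not pass (adjusted p = 0.0517), and at least 8.8-fold lower in DSS WT than in baseline WT (adjusted p = 0.0385). That call was lost without any 1 of 6 libraries, with adjusted p from 0.0529 (baseline DKO 2) through DSS WT 1, 2 and 3 and baseline DKO 3 to 0.282 (baseline WT 1), and it rests on 16 counts in baseline WT. Lama2, a muscle and stromal laminin chain, ranged from 0 to 0.49 CPM and passed in no comparison, and Lamc3 was not tested.

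Type IV collagen, the network of the basement membrane, did not pass in any chain or comparison. Col4a1 had 1.18, 2.19 and 2.43 CPM in DSS DKO, 1.18, 1.4 and 0.569 CPM in DSS WT, 3.59, 2.49 and 2.15 CPM in baseline DKO and 1.96 and 1.94 CPM in baseline WT. Its DSS groups overlapped (0.88 ± 0.37, adjusted p = 0.149). Col4a2, the partner of Col4a1 in the common network, had 1.15, 1.97 and 1.56 CPM in DSS DKO, 0.725, 1.01 and 0.55 CPM in DSS WT, 2.88, 2.88 and 1.5 CPM in baseline DKO and 1.84 and 1.13 CPM in baseline WT. The DSS DKO libraries lay above the DSS WT libraries, and the difference did not pass (1.03 ± 0.36, adjusted p = 0.0891), while DESeq2 called it (adjusted p = 0.0497). Both genes share a head-to-head start on chromosome 8, where their annotated exons overlap by 22 bases, so a few reads cannot be assigned without strand. Col4a3 and Col4a4, chains of the kidney's basement membrane that also start head to head, 71 bases apart on chromosome 1, stayed under 0.95 CPM, and Col4a3 shares 563 exon bases with the gene model C430014B12Rik. Col4a5 and Col4a6, a head-to-head pair on X, were not tested.

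Among the collagens that anchor or line the basement membrane, Col18a1 differed between the genotypes. Col18a1, whose end is cut off as endostatin, had 1.98, 3.3 and 2.97 CPM in DSS DKO, 0.803, 0.783 and 0.532 CPM in DSS WT, 3.0, 2.59 and 2.74 CPM in baseline DKO and 1.8 and 1.43 CPM in baseline WT. DSS WT lay below every other library, and DSS DKO and baseline DKO overlapped. Col18a1 was higher in DSS DKO than in DSS WT (1.96 ± 0.27, adjusted p = 0.00181), a call kept with any single library left out, and lower in DSS WT than in baseline WT (-1.19 ± 0.30, adjusted p = 0.0109), a call lost without baseline WT 1 (adjusted p = 0.0976). DSS DKO did not pass against baseline DKO (-0.01 ± 0.26, adjusted p = 0.974).

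Col7a1, the collagen of anchoring fibrils, had 0.703, 0.77 and 0.318 CPM in DSS DKO, 0.549, 0.634 and 0.495 CPM in DSS WT, 1.92, 2.49 and 1.79 CPM in baseline DKO and 2.61 and 2.19 CPM in baseline WT. All 6 DSS libraries lay below all 5 baseline libraries, and the DSS groups overlapped. It was lower in DSS DKO than in baseline DKO (-1.78 ± 0.33, adjusted p = 0.003) and in DSS WT than in baseline WT (-2.10 ± 0.35, adjusted p = 0.00144), and its interaction was 0.32 ± 0.48, adjusted p = 0.767. The call in DKO was lost without the 3 cartilage-rich libraries (adjusted p = 0.0803). Col17a1, the transmembrane collagen of hemidesmosomes, was at trace levels of 0.148, 0.121 and 0.068 CPM in DSS DKO, 0.0588, 0.0746 and 0.0734 CPM in DSS WT, 0.433, 0.339 and 0.0583 CPM in baseline DKO and 0.687 and 0.128 CPM in baseline WT. It passed the filter only through baseline libraries, so its contrasts with DSS were shaped by the filter, and each DSS library held 3 to 8 counts. It was lower in DSS WT than in baseline WT (-2.52 ± 0.88, adjusted p = 0.0434), but baseline WT 2 lay close to the DSS libraries and without baseline WT 1 the adjusted p was 0.637. Leaving out any 1 of DSS DKO 2, DSS WT 1, DSS WT 2, DSS WT 3 and baseline DKO 2 also lost it (adjusted p = 0.0568 to 0.1). Col15a1, the other multiplexin, ranged from 0.223 to 1.76 CPM and passed in no comparison.

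On the stromal side type I collagen was the most abundant, and neither of its chains passed between the genotypes. Col1a1 had 118, 111 and 167 CPM in DSS DKO, 192, 184 and 159 CPM in DSS WT, 296, 269.8 and 118 CPM in baseline DKO and 186 and 151 CPM in baseline WT. Col1a2, the other chain of the type I trimer, had 73, 70.1 and 107 CPM in DSS DKO, 123, 115 and 105 CPM in DSS WT, 199.5, 173 and 76.8 CPM in baseline DKO and 116 and 101 CPM in baseline WT. Both were highest in baseline DKO 1 and 2, and in both DSS DKO 1 and 2 lay below all DSS WT libraries while DSS DKO 3 lay within or just above the lowest of them. Neither passed in DSS DKO against DSS WT (Col1a1 -0.43 ± 0.30, adjusted p = 0.391, and Col1a2 -0.46 ± 0.30, adjusted p = 0.374). Without baseline DKO 1, baseline DKO 2 and DSS DKO 3, the log2 fold changes between DSS DKO and DSS WT were -0.65 for Col1a1 and -0.68 for Col1a2. Those libraries were chosen after the data were seen, and DSS DKO 3 was the highest of its group in both genes. Per kb of exon, the ratio of Col1a1 to Col1a2 was 2.81 to 3.05 over the 11 libraries, and per kb of the longest transcript 1.34 to 1.45, so its size depends on the length used and its spread between libraries is small by both. The ratio of Col1a1 to Col3a1 per kb of exon was 7.41 to 16.1 in DSS DKO, 34.6 to 42.9 in DSS WT, 24.8 to 33.3 in baseline DKO and 22.8 to 41.6 in baseline WT.

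The libraries with the most type I collagen RNA at baseline also had the most RNA of bone genes. Ibsp, bone sialoprotein, had 3.37, 2.98 and 13.1 CPM in DSS DKO, 7.58, 6.56 and 4.73 CPM in DSS WT, 26.4, 28.8 and 4.31 CPM in baseline DKO and 5.9 and 4.68 CPM in baseline WT, and the summed bone genes (8, picked after their values were seen) were at 8.14 to 19.9 CPM in DSS DKO, 11.8 to 16.1 CPM in DSS WT, 9.77 to 42.2 CPM in baseline DKO and 11.7 to 16.9 CPM in baseline WT. As for Col1a1, baseline DKO 1 and 2 were the highest. None of the 8 passed between DSS DKO and DSS WT. Their part in the type I values was not tested.

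Another set of stromal collagens was higher in DSS DKO, most of all in its replicates 2 and 3. Col3a1, the fibrillar collagen of soft tissue, had 10.9, 22.4 and 23.1 CPM in DSS DKO, 7.31, 6.39 and 6.88 CPM in DSS WT, 16.2, 12.1 and 7.11 CPM in baseline DKO and 12.2 and 5.45 CPM in baseline WT. The DSS DKO libraries lay above the DSS WT libraries, with replicate 1 nearest to them and within the baseline range. Col3a1 was higher in DSS DKO than in DSS WT (1.46 ± 0.38, adjusted p = 0.0349). The call was lost without DSS DKO 2 (adjusted p = 0.122), DSS DKO 3 (0.0567), DSS WT 1 (0.056), DSS WT 2 (0.121), DSS WT 3 (0.107) or baseline DKO 2 (0.0548).

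Col12a1, a collagen on the surface of type I fibrils, had 2.7, 10.1 and 16.5 CPM in DSS DKO, 1.84, 1.66 and 1.93 CPM in DSS WT, 5.08, 2.81 and 1.82 CPM in baseline DKO and 2.1 and 1.4 CPM in baseline WT. DSS DKO 2 and 3 were above all other libraries, DSS DKO 1 lay within the baseline range, and the DSS WT libraries were close together. Col12a1 was higher in DSS DKO than in DSS WT (2.43 ± 0.58, adjusted p = 0.0272), and this was lost without DSS DKO 2 (adjusted p = 0.0805), DSS WT 2 (0.102) or DSS WT 3 (0.0883). Against baseline DKO it did not pass (1.60 ± 0.57, adjusted p = 0.067).

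Type VI collagen, the beaded microfibrils between cells and fibrils, was likewise highest in DSS DKO 2 and 3. Col6a3, its large alpha chain, had 2.0, 5.37 and 8.01 CPM in DSS DKO, 1.37, 1.04 and 0.991 CPM in DSS WT, 3.56, 2.37 and 1.07 CPM in baseline DKO and 1.58 and 0.787 CPM in baseline WT. Col6a2 had 3.87, 10.4 and 8.12 CPM in DSS DKO, 3.35, 2.11 and 2.04 CPM in DSS WT, 5.51, 3.7 and 2.04 CPM in baseline DKO and 2.57 and 1.76 CPM in baseline WT. Col6a1 had 5.07, 13.7 and 14.5 CPM in DSS DKO, 5.25, 2.46 and 3.63 CPM in DSS WT, 7.06, 4.36 and 2.41 CPM in baseline DKO and 3.17 and 2.49 CPM in baseline WT. In all 3 genes DSS DKO 2 and 3 were the highest of the 11 libraries, and DSS DKO 1 lay within the range of baseline DKO. Col6a3 (2.17 ± 0.54, adjusted p = 0.0265) and Col6a2 (1.58 ± 0.42, adjusted p = 0.0337) were higher in DSS DKO than in DSS WT, and Col6a1 did not pass (1.55 ± 0.47, adjusted p = 0.0587). The Col6a3 call was lost without DSS DKO 2 (adjusted p = 0.0847), DSS DKO 3 (0.0549), DSS WT 2 (0.0992) or DSS WT 3 (0.0999). The Col6a2 call was lost without the same 4 (adjusted p = 0.137, 0.0534, 0.127 and 0.125) or without baseline DKO 2 (0.052). None of the 3 passed against baseline DKO. Col6a1 and Col6a2 lie 85161 bases apart on chromosome 10.

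Col6a4, a chain of type VI collagen, had 0.074, 0.324 and 0.839 CPM in DSS DKO, 0, 0 and 0 CPM in DSS WT, 0, 0.0484 and 0.0194 CPM in baseline DKO and 0.222 and 0.0213 CPM in baseline WT. Like Lama1 it passed the filter only through groups where it was present, and DSS WT held 0 counts. Baseline DKO held 0, 2 and 1 counts, and Col6a4 passed only through DSS DKO and baseline WT. The contrast of DSS DKO with baseline DKO was thus shaped by the filter too. Col6a4 was at least 20.5-fold higher in DSS DKO than in DSS WT against a floor of 3 counts over the group, from 57 counts in DSS DKO (adjusted p = 0.0235), and higher in DSS DKO than in baseline DKO (3.96 ± 1.25, adjusted p = 0.0449). The first call was lost without DSS DKO 2, DSS DKO 3, DSS WT 2 or DSS WT 3 (adjusted p = 0.0544 to 0.072) and the second without DSS DKO 2, DSS DKO 3 or any baseline DKO library (0.0829 to 0.155). Col5a3, a minor fibrillar chain, had 0.426, 1.46 and 0.567 CPM in DSS DKO, 0.215, 0.224 and 0.294 CPM in DSS WT, 0.186, 0.242 and 0.194 CPM in baseline DKO and 0.727 and 0.468 CPM in baseline WT. DSS DKO 2 was far above the other libraries. Col5a3 was higher in DSS DKO than in DSS WT (1.73 ± 0.49, adjusted p = 0.0409), a call lost without any 1 of 9 libraries (adjusted p = 0.0516 to 0.227), the exceptions being DSS DKO 1 and DSS DKO 3. It was also higher than in baseline DKO (1.96 ± 0.51, adjusted p = 0.0164), lost without DSS DKO 2 (adjusted p = 0.0869) or baseline DKO 1 (0.0502).

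Of 12 fibroblast markers other than collagens, 2 were higher in DSS DKO than in DSS WT, 1 was lower and 9 did not pass, and 7 of the 12 had a positive log2 fold change. The 2 that were higher were Dcn and Pdgfra. Dcn, the fibril-binding proteoglycan decorin, had 12.6, 47.8 and 57.5 CPM in DSS DKO, 8.13, 6.92 and 10.3 CPM in DSS WT, 5.57, 7.26 and 4.85 CPM in baseline DKO and 4.69 and 3.17 CPM in baseline WT. Pdgfra, a receptor of fibroblasts, had 1.28, 5.12 and 8.71 CPM in DSS DKO, 0.901, 0.149 and 0.385 CPM in DSS WT, 0.712, 0.436 and 0.291 CPM in baseline DKO and 0.727 and 0.298 CPM in baseline WT. In both, as in Col6a3 and Col12a1, DSS DKO 3 was highest, DSS DKO 2 next and DSS DKO 1 lower. Both were higher in DSS DKO than in DSS WT (Dcn 2.22 ± 0.47, adjusted p = 0.0181, and Pdgfra 3.39 ± 0.78, adjusted p = 0.0221), and Thy1, the marker that was lower, stood at -1.41 ± 0.33 (adjusted p = 0.02). In the same comparison 6 of 6 T cell markers were lower, with a median log2 fold change of -1.31. The part of T cells in the Thy1 value was not tested. The collagens Col3a1, Col6a1, Col6a2, Col6a3 and Col12a1 summed to 24.6, 62.0 and 70.2 CPM in DSS DKO 1, 2 and 3, against 19.1, 13.7 and 15.5 CPM in DSS WT. The part of fibroblasts in these values was not tested.

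**Figure D4:**
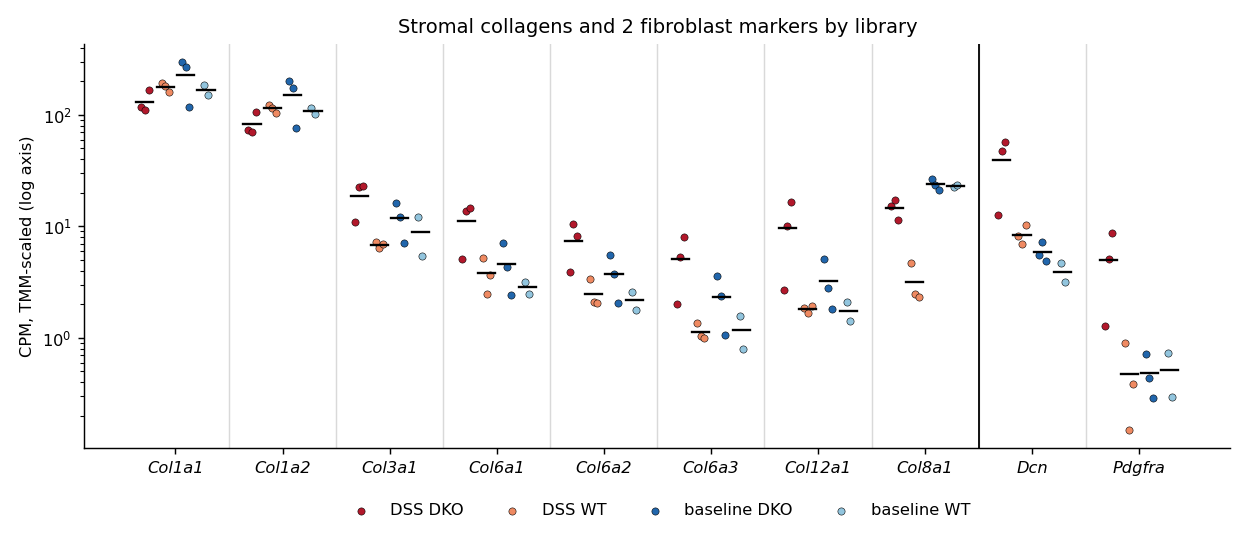
Each point is the CPM of 1 library on a log axis and black lines are arithmetic group means, for 8 stromal collagens and, right of the black line, Dcn and Pdgfra. These are the 2 of 12 fibroblast markers called higher in DSS DKO than in DSS WT, while 1 was lower and 9 did not pass. DSS DKO 2 and 3 stand above the other libraries for Col6a1, Col6a2, Col6a3, Col12a1, Dcn and Pdgfra but not for Col1a1 and Col1a2, and in Col8a1 the 3 DSS WT libraries are lowest.

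Col8a1, a short-chain network collagen found around vessels, did not share that order. Col8a1 had 15.1, 17.4 and 11.5 CPM in DSS DKO, 4.66, 2.48 and 2.31 CPM in DSS WT, 26.8, 23.4 and 21.2 CPM in baseline DKO and 22.7 and 23.6 CPM in baseline WT. The baseline genotypes overlapped, DSS DKO lay below both, and DSS WT lay far below all other libraries. Col8a1 was higher in DSS DKO than in DSS WT (2.22 ± 0.26, adjusted p = 0.000744) and lower in DSS WT than in baseline WT (-2.88 ± 0.28, adjusted p = 0.000118), and both calls held when any single library was left out. DSS DKO against baseline DKO did not pass (-0.70 ± 0.24, adjusted p = 0.0559). The interaction was 2.18 ± 0.37, adjusted p = 0.017, lost without any 1 of DSS DKO 2 (adjusted p = 0.0659), DSS WT 2 (0.0531), DSS WT 3 (0.0535), baseline DKO 3 (0.056), baseline WT 1 (0.0743) and baseline WT 2 (0.0676). Col8a1 lies on the minus strand of chromosome 16 at 57624258 to 57754737 (GRCm38). Col8a2, its partner chain, stayed under 0.49 CPM and passed in no comparison.

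Col16a1, a fibril-associated collagen, had the smallest interaction of the 4 members that fell with DSS in both genotypes, the others being Col7a1, Lamb2 and Lama5. Col16a1 had 3.15, 2.92 and 1.45 CPM in DSS DKO, 3.27, 1.72 and 1.39 CPM in DSS WT, 15.6, 15.8 and 10.6 CPM in baseline DKO and 13.6 and 12.5 CPM in baseline WT. All 6 DSS libraries lay below all 5 baseline libraries, and the genotypes overlapped in both conditions. It fell in DSS DKO (-2.48 ± 0.35, adjusted p = 0.000797) and in DSS WT (-2.61 ± 0.38, adjusted p = 0.000706) against their baselines, with an interaction of 0.14 ± 0.50, adjusted p = 0.911. Col20a1, another of this class, had 2.79, 3.16 and 1.38 CPM in DSS DKO, 2.21, 0.951 and 1.49 CPM in DSS WT, 4.64, 3.54 and 3.53 CPM in baseline DKO and 7.5 and 5.17 CPM in baseline WT. It was lower in DSS WT than in baseline WT (-2.03 ± 0.38, adjusted p = 0.00264), while DSS DKO against baseline DKO did not pass (-0.67 ± 0.35, adjusted p = 0.181), and the interaction did not pass (1.36 ± 0.52, adjusted p = 0.184). Col25a1, a transmembrane collagen, had 0.74, 1.46 and 1.54 CPM in DSS DKO, 0.509, 0.951 and 0.606 CPM in DSS WT, 0.588, 0.484 and 0.427 CPM in baseline DKO and 1.29 and 0.957 CPM in baseline WT. It was higher in DSS DKO than in baseline DKO (1.32 ± 0.38, adjusted p = 0.0253), a call lost without DSS DKO 2 (adjusted p = 0.0828), DSS DKO 3 (0.0771), baseline DKO 2 (0.0797) or baseline DKO 3 (0.0744).

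**Figure D5:**
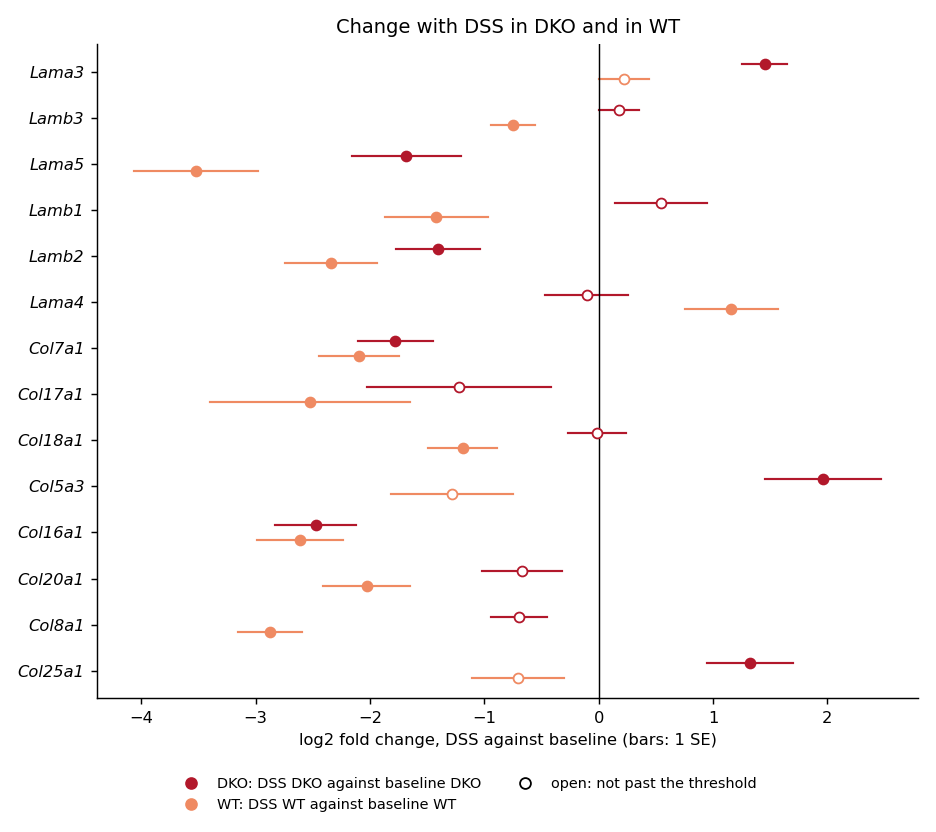
Log2 fold changes with DSS (x axis), in DKO above and in WT below for each of 14 members called in at least 1 genotype, with bars of 1 SE and filled symbols for an adjusted p under 0.05. Col16a1 and Col7a1 fell in both genotypes, Lama3 rose in DKO, and Col8a1 fell in WT; Lama1 and Col6a4 are not drawn because a group held 0 counts.

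The collagens of cartilage varied between libraries of the same group. Col2a1, the fibrillar collagen of cartilage, had 2.26, 4.58 and 30.6 CPM in DSS DKO, 12.8, 9.99 and 3.91 CPM in DSS WT, 60.2, 21.7 and 1.9 CPM in baseline DKO and 3.7 and 6.47 CPM in baseline WT. Col10a1, made by hypertrophic chondrocytes, had 0.185, 0.324 and 10.4 CPM in DSS DKO, 1.35, 1.58 and 0.404 CPM in DSS WT, 21.8, 8.11 and 0.155 CPM in baseline DKO and 0.323 and 0.255 CPM in baseline WT. Baseline DKO 1, DSS DKO 3 and baseline DKO 2 were highest in Col2a1, and the same 3 were highest in Col10a1, while baseline DKO 3 and DSS DKO 1 were the lowest in both. The 7 genes Col2a1, Col9a1, Col9a2, Col9a3, Col10a1, Col11a1 and Col11a2, picked after their values were seen, summed to 9.49, 11.7 and 55.5 CPM in DSS DKO, 26.8, 25.0 and 13.3 CPM in DSS WT, 114, 49.8 and 8.72 CPM in baseline DKO and 16.6 and 17.2 CPM in baseline WT. None of the 7 passed in any of the 5 comparisons by edgeR's test, the lowest unadjusted p being that of Col11a2 in DSS DKO against baseline DKO (0.0326, adjusted p = 0.0993). Acan, the cartilage proteoglycan and from the same later choice, had 0.222, 0.243 and 4.08 CPM in DSS DKO, 0.999, 0.634 and 0.55 CPM in DSS WT, 6.93, 3.12 and 0.117 CPM in baseline DKO and 0.323 and 0.17 CPM in baseline WT.

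Of the other tested members, Col5a1 and Col5a2 (chains of type V, 1.60 to 7.85 CPM), Col24a1, Col27a1, Col6a5, Col14a1, Col22a1, Col13a1, Col23a1 and Col28a1 (0 to 3.58 CPM) passed in no comparison. Col6a5 (-1.23 ± 0.57, adjusted p = 0.191) and Col14a1 (-0.58 ± 0.58, adjusted p = 0.568) had negative log2 fold changes in DSS DKO against DSS WT, and Col28a1 lay near 0 (-0.03 ± 0.32, adjusted p = 0.971). Not tested for low counts were 6 members, Lamc3, Col4a5, Col4a6, Col6a6, Col19a1 and Col26a1, all under 0.37 CPM in every library.

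The other genes of the matrix were counted in the same way. Of all genes tested, 5.26% were higher and 5.98% lower in DSS DKO than in DSS WT. With DSS, 16.9% were higher and 16.5% lower in WT, and 12.6% higher and 11% lower in DKO. The lists are short, so a few calls in a list can lie near these shares. Of 13 tested linkers and proteoglycans of the basement membrane, 5 were higher in DSS DKO than in DSS WT and 0 lower, with a median log2 fold change of 0.86. Ntn4, a laminin-related protein that binds laminin networks, had 15.8, 25.3 and 23.5 CPM in DSS DKO, 6.56, 4.1 and 7.05 CPM in DSS WT, 16.4, 12.8 and 14.3 CPM in baseline DKO and 14.7 and 13.7 CPM in baseline WT. DSS WT lay below all other libraries, and Ntn4 was higher in DSS DKO (1.87 ± 0.23, adjusted p = 0.000899) with an interaction of 1.83 ± 0.33, adjusted p = 0.0239. Tinagl1 (0.82 ± 0.18, adjusted p = 0.0158), Nid1 (2.01 ± 0.46, adjusted p = 0.0181) and Nid2 (0.78 ± 0.21, adjusted p = 0.0351) were also higher, the nidogens being the links between laminin and type IV collagen, and Papln (1.66 ± 0.47, adjusted p = 0.0433) was the other. With DSS in WT, 0 of the 13 were higher and 4 lower, namely Hspg2 (-2.15 ± 0.37, adjusted p = 0.002), Ntn4 (-1.26 ± 0.25, adjusted p = 0.00318), Nid2 (-1.18 ± 0.23, adjusted p = 0.00325) and Agrn (-1.78 ± 0.56, adjusted p = 0.0368), and with DSS in DKO 3 were higher and 1 lower.

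Laminin and collagen receptors (16 genes) gave 1 higher and 1 lower between DSS DKO and DSS WT, near the shares of all genes (5.26% higher and 5.98% lower). Bcam, which binds the laminin alpha 5 chain, was higher (1.47 ± 0.39, adjusted p = 0.0312) and Cd44 lower (-1.19 ± 0.17, adjusted p = 0.0018). Hemidesmosome partners (5 genes) gave 0 of either by edgeR's test. With DSS in WT, 2 of the 5 fell, the cytoskeletal linker Plec (-2.99 ± 0.90, adjusted p = 0.0309) and Itgb4, the beta chain of the laminin-332 receptor (-2.12 ± 0.70, adjusted p = 0.0445), and the tetraspanin Cd151 rose (0.59 ± 0.14, adjusted p = 0.00692). Of 14 genes that process or cross-link collagen, 4 were higher and 0 lower, the cross-linking enzymes Tgm2 (1.02 ± 0.17, adjusted p = 0.00397) and Loxl2 (2.80 ± 0.52, adjusted p = 0.007), the protease Mep1a (0.68 ± 0.15, adjusted p = 0.0168) and Bmp1 (1.02 ± 0.24, adjusted p = 0.0191), which trims procollagen. Of 17 collagen modification and folding enzymes, P4ha1 (-0.90 ± 0.12, adjusted p = 0.00133) and Plod1 (-0.65 ± 0.15, adjusted p = 0.0174), which hydroxylate proline and lysine, were lower and P3h4 (0.76 ± 0.20, adjusted p = 0.0308) higher. Of 19 other interstitial matrix genes, 3 were higher (Thbs1, Dcn and Fbn1) and 0 lower, and of 12 TGF-beta genes 1 was higher, Tgfbi (2.52 ± 0.26, adjusted p = 0.000566). Of 7 neutrophil markers 5 were higher in DSS DKO than in DSS WT (summed 157 to 221 CPM, against 49.7 to 57.1 CPM in DSS WT), 6 of 6 T cell markers were lower, and macrophage, smooth muscle, pericyte and glial markers gave 0 calls in either direction by edgeR's test, and their part in the values of the matrix genes was not tested.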

How the data were processed

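RNA-seq of 11 libraries of colonic epithelial cells was used, from poly(A)-enriched RNA. The deposited values are raw read counts per gene symbol, and the authors aligned reads with STAR to mm10, per the submitters' processing notes; for the read counter, annotation, strand setting and versions the sources used here give nothing. Gene positions and exon lengths are from GENCODE M21 (GRCm38), matched by symbol for 50671 of 54513 symbols and all 54 members described.

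Computed here were TMM-scaled CPM and edgeR's quasi-likelihood test (edgeR 4.0.16, limma 3.58.1, R 4.3.3, robust, 1 mean per group, all 11 libraries, filterByExpr with a minimum count of 10), with Benjamini-Hochberg adjustment over 19267 genes and a threshold of 0.05. SE is the absolute log2 fold change over the square root of F. The common biological coefficient of variation was 0.234, and totals were 41631951 to 52761900 counts per library. The procedure was tested on simulated data. Alternatives were DESeq2 1.42.0, its size factors, other filters, a 1.5-fold minimum, only the compared groups, a replicate block, removal of Rn18s-rs5 and leaving out libraries. Rn18s-rs5 held 0.1281% to 0.1684% of counts in DSS DKO and 0.1969% to 0.2501% in DSS WT. At baseline it held 0.3152% to 23.05% in DKO and 0.6281% to 1.586% in WT. Leaving out the 3 cartilage-rich libraries (baseline DKO 1, baseline DKO 2 and DSS DKO 3) was chosen after seeing the data, as were the bone and cartilage lists.

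A gene that the rule selects is not reported here and enters no count of members, although it stayed in the fits. Members and lists were chosen with earlier results of these data known. Values per library are given for called members and for the main chains of laminins and of collagens I, III, IV, VI, VII, XVII and XVIII, and up to 4 called genes with the lowest adjusted p are named per pathway list; others were chosen after their values were seen. The labels call libraries biological replicates but do not say that each came from 1 mouse, and the p-values cover only the spread among these libraries, which may be technical.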

Additional observations from a re-analysis of the deposited data

Results flagged for a closer look

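Col8a1 was the 1 member described here called for a change with DSS that differed between the genotypes by a test of the difference itself, the interaction in edgeR's quasi-likelihood fit. DSS libraries had the sex-linked pattern of females and baseline libraries that of males, so an interaction with DSS cannot be told apart from one with sex. For Col8a1 the interaction was 2.18 ± 0.37 on the log2 scale (SE, adjusted p = 0.017): DSS DKO against baseline DKO was -0.70 ± 0.24 and DSS WT against baseline WT -2.88 ± 0.28, and all 3 DSS WT libraries lay below both baseline WT libraries. Without the 3 cartilage-rich libraries the Col8a1 interaction was 2.45 with an adjusted p of 0.0636, and Lama5 was called in its place (2.83, adjusted p = 0.0302), while DESeq2 called 7 members, Col8a1 among them.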

How the results depend on the processing

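Counts of members called depended on the fit. Beside 12 higher and 0 lower in DSS DKO against DSS WT, there were 2 higher with a 1.5-fold minimum, 6 higher with only the groups compared, 5 higher and 2 lower without the 3 cartilage-rich libraries, 3 lower with no filter, 1 lower with DESeq2 and 1 lower with the replicate block. Leaving out single libraries gave 4 to 17 higher and 0 to 1 lower. At baseline no filter gave 2 higher in DKO, against 0. In DSS WT against baseline WT (1 higher, 11 lower) there were 4 higher with no filter, 2 with DESeq2, 0 with the 1.5-fold minimum and 2 without the cartilage-rich libraries, and 6 lower with the 1.5-fold minimum; single libraries gave 0 to 1 higher and 6 to 13 lower. In DSS DKO against baseline DKO (4 higher, 4 lower) no filter gave 10 higher and 16 lower, DESeq2 7 and 9, the 1.5-fold minimum 1 and 2 and the cartilage-rich libraries left out 1 and 1; a minimum count of 50 gave 2 higher, and single libraries 1 to 9 higher and 2 to 10 lower. In the interaction (1 higher, 0 lower) no filter gave 13 higher and 4 lower, DESeq2 7 higher, the 1.5-fold minimum 0 higher and single libraries 0 to 8 higher. Counts over all genes shifted too. In DSS DKO against DSS WT, 1013 higher and 1152 lower became 175 and 133 with the 1.5-fold minimum. In DSS DKO against baseline DKO, 2430 and 2115 became 475 and 625 with that minimum and 2642 and 2713 with DESeq2. No filter gave 2285 and 3171 there. In the interaction, 149 and 153 became 764 and 705 with no filter and 555 and 705 with DESeq2. The smaller fits hold fewer samples, and the cause of the other shifts was not tested.

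Of 806 alternative values of single genes, 651 kept their direction and side of the threshold, 133 lost a call, 20 gained one and 2 reversed. Of 33 calls of a member in a comparison, 23 were lost under at least 1 alternative. The 2 reversals were Col7a1 in DSS DKO against DSS WT, not called at 0.10 (log2), at -0.03 without DSS DKO 1 and -0.12 without DSS DKO 2, with single libraries left out giving -0.12 to 0.40. Per-kb levels from the longest transcript in place of all exons moved beyond 1 SD for 28 of 64 group means, among them Col1a2, whose place in the order of levels changed.

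The main fit did not pair libraries by replicate number. Same-number correlations of deviations were -0.07 to 0.302 over all groups. Between DSS DKO and DSS WT they were 0.302, 0.0194 and 0.201, against -0.303 to 0.157 for libraries of different number. Whether same-numbered libraries shared handling was not tested. With the replicate block there were 12 members higher and 1 lower in DSS DKO against DSS WT, 0 and 0 at baseline, 1 and 10 in DSS WT against baseline WT, 4 and 6 in DSS DKO against baseline DKO, and 1 and 0 in the interaction. The calls differed by more than these counts. In DSS DKO against DSS WT the block lost Col3a1 (adjusted p = 0.0501) and Col5a3 (0.0618) and added Lama5 (0.01) and Lamb2 (0.0406) as higher and Lama4 (0.0499) as lower. In DSS WT against baseline WT it lost Col17a1 (0.127) and Lama1 (0.0501) and added Col6a4 as lower (0.0448). In DSS DKO against baseline DKO it lost Col6a4 (0.0588) and added Lamc1 as higher (0.0313) and Col6a5 (0.042) and Col8a1 (0.0225) as lower.

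With 2 baseline WT libraries, and members such as Col17a1, Lama1 and Col6a4 at a few counts per library, depth and sample number limit what baseline comparisons can detect.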

Other observations

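Ratios between chains of the same protein, per kb of exon, were also taken, with no test. Lamb3 to Lama3 stood at 3.93 to 4.58 in DSS DKO, 3.37 to 8.61 in DSS WT, 9.94 to 10.9 in baseline DKO and 8.26 to 11 in baseline WT, so the DSS DKO libraries lay below all baseline libraries, as they did per kb of the longest transcript (5.24 to 6.11 in DSS DKO). Lama5 to Lama3, the alpha chain of laminin-511 against that of laminin-332, stood at 0.0296 to 0.107 in DSS DKO, 0.0373 to 0.102 in DSS WT, 0.505 to 0.904 in baseline DKO and 0.621 to 0.967 in baseline WT. The DSS groups overlapped in that ratio, and both lay below every baseline library.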
